A study of Homo sapiens with 45 samples.

Results

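GD2 is the ganglioside that therapeutic antibodies bind on neuroblastoma cells, and the 10 genes described here make it or encode other cell surface antigens under study as antibody or CAR targets. They were picked by symbol: 5 ganglioside enzymes (UGCG, B4GALT5, ST3GAL5, ST8SIA1, B4GALNT1) and 5 surface proteins (GPC2, CD276, NCAM1, L1CAM, CD47). All 10 were found among the 29159 genes of the count tables. RNA-seq was available for 3 human neuroblastoma lines as untreated controls, after 24 h in the CDK4/6 inhibitor palbociclib (PB, 1 μM), and after 7 days (SK-N-BE(2)C) or 5 days (IMR-32 and SH-SY5Y) of it, with 5 libraries in each of the 9 groups. The untreated cells were harvested together with the 24 h cultures, and the longer treatments had no control of their own, so that treatment and added days in culture cannot be told apart at 5 or 7 days. Where 3 values are given together, they stand for SK-N-BE(2)C first, IMR-32 next and SH-SY5Y last. SK-N-BE(2)C and IMR-32 carry amplified MYCN. SH-SY5Y does not, and it carries a mutant ALK. All lines were grown in medium with serum, each line stands for 1 tumour, and the longer time differed between lines, so that line and duration cannot be told apart wherever SK-N-BE(2)C is set against the others.

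GD2 is built one sugar at a time in the Golgi. UGCG adds glucose to ceramide, B4GALT5 adds galactose to give lactosylceramide, and ST3GAL5 adds the first sialic acid to give GM3. ST8SIA1 (GD3 synthase) adds the next sialic acid, and B4GALNT1 adds N-acetylgalactosamine, which turns GD3 into GD2 and GM3 into GM2. Both last enzymes act at the branch point, since without ST8SIA1 the product of B4GALNT1 is GM2. GPC2 is a glypican anchored in the membrane, CD276 (B7-H3) is an immune checkpoint ligand, NCAM1 and L1CAM are neural adhesion molecules of the immunoglobulin superfamily, and CD47 is the signal that restrains macrophages through SIRPA. The counts are of mRNA, and neither the lipid nor the proteins were analysed here.

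The promoters of 3 genes are printed, picked from those with a listed promoter: ST8SIA1, whose level set the lines furthest apart, and GPC2 and L1CAM, which both rose in all lines in at least 1 comparison. B4GALNT1, which fell in all lines at 24 h, had none listed. Each sequence runs 5′ to 3′ from 250 bases before to 50 after the RefSeq start (GRCh38.p14), with every GGGCGG (GC box) and CCAAT match, on either strand, in capitals.
ST8SIA1, chr12:22334658-22334957, minus strand: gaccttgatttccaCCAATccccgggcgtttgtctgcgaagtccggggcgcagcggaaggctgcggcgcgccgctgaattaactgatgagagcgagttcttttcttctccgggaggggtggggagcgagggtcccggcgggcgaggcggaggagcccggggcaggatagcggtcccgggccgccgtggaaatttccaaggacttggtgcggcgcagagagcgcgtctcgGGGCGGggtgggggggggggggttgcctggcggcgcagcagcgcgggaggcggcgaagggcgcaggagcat
GPC2, chr7:100177332-100177631, minus strand: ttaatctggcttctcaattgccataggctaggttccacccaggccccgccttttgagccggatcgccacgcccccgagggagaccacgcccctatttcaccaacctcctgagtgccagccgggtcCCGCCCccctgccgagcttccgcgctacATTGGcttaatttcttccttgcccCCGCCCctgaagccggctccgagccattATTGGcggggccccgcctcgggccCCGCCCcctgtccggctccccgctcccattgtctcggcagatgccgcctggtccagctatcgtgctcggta
L1CAM, chrX:153875895-153876194, minus strand, the first of 2 listed starts: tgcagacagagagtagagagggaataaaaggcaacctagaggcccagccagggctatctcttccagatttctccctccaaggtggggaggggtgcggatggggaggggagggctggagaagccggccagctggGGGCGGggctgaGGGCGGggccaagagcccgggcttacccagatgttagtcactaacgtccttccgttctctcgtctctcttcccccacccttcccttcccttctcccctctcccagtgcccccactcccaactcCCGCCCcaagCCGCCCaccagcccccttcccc
RefSeq promoters were given for 8 of the 10 genes, all but B4GALNT1 and NCAM1. Some have several listed starts, and a gene was counted if any of its promoters held the letters, so that counts of genes and shares of promoters are not on the same footing. GGGCGG was present in at least 1 listed promoter of each of the 8, beside 44.95% of all 35116 promoters of this length, and CCAAT in 4 of them (CD276, GPC2, ST3GAL5 and ST8SIA1), beside 34.6%. The letters CACGTG, an E-box, were in none of the 8 and in 7.26% of all promoters. Of the E2F letters, TTTCGCG was in none and in 1.318% of all, and TTTGGCG was in B4GALT5 and in 1.92% of all. TATAAA was in none of the 8 and in 11.5% of all. These are letter matches within the window and nothing more.

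Libraries held 13459219 to 25441812 counts (median 18494528), and levels are given as CPM, the share of a library's reads that fell on a gene, scaled so that 1 CPM stood for about 18.5 reads. Summed CPM of 8 proliferation genes had a median of 3187 untreated and 411 at 24 h for SK-N-BE(2)C, of 2668 and 419.8 for IMR-32, and of 2735 and 255 for SH-SY5Y. At the longer time the medians were 651, 1210 and 553 in the 3 lines. Of 10 adrenergic markers, all were over 1 CPM in the MYCN-amplified lines and 9 in SH-SY5Y, where TH was under 1 CPM. Summed CPM of 11 mesenchymal markers ranged from 607 to 1185 in IMR-32 controls and 285 to 482 at 5 days, from 732 to 998 and 481 to 799.6 in SK-N-BE(2)C, and from 1755 to 2234 and 1425 to 1616 in SH-SY5Y. Of those tested, 7 of 10 were called lower at 7 days in SK-N-BE(2)C (1 higher), 5 of 7 in IMR-32 (6 of 6 without replicate 5) and 6 of 10 in SH-SY5Y (2 higher). Their part in the results was not tested. Schwann cell markers were low throughout, with sums of 5.70 to 65.7 CPM and CDH19 under 1 CPM in every group. In IMR-32, the control and 24 h libraries of replicate 5 stood apart from the other 4, with higher NCAM1 and lower ST3GAL5, ST8SIA1, GPC2, L1CAM and CD47. Values without replicate 5 are therefore also given for the IMR-32 results that it moved across the test or the size limit, and for some others. A gene is said to have risen, fallen or been called when its Benjamini-Hochberg adjusted p in edgeR's quasi-likelihood test was under 0.05 and its log2 fold change was over 0.5 in size.

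ST8SIA1 (chromosome 12, 22216707 to 22589975, minus strand, hg19) showed the widest contrast among lines. In untreated IMR-32 the 5 libraries held 49.7, 48.2, 49.0, 51.0 and 23.3 CPM. In untreated SH-SY5Y they held 0.211, 0.684, 0.469, 0.620 and 0.370 CPM, from 5, 13, 9, 13 and 7 reads. In untreated SK-N-BE(2)C they held 1, 3, 0, 0 and 0 reads. The ranges of the 3 lines did not overlap, and only IMR-32 was above 1 CPM. The log2 difference of SH-SY5Y from IMR-32 was -6.74 ± 0.28 (SE; edgeR adjusted p = 4.66e-24), and the fitted excess of SH-SY5Y over SK-N-BE(2)C was 3.10, or 2.82 to 4.38 when 1 library was left out. Both this value and the fitted difference of IMR-32 from SK-N-BE(2)C, 9.84, rest on 4 reads in the 5 SK-N-BE(2)C controls and depend on the prior count. In the fit over 45 libraries the gene passed the low-count filter through the lines where it was higher, so that its fitted values against SK-N-BE(2)C are given as a description, with no p.

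In SK-N-BE(2)C, ST8SIA1 was near 0 until 7 days of PB. The 24 h libraries held 0, 1, 2, 3 and 0 reads, and the 7 day libraries held 9, 11, 20, 13 and 6 reads. The 7 day range of 0.330 to 0.841 CPM lay wholly above the controls (0 to 0.132 CPM) and the 24 h libraries (0 to 0.167 CPM). In all, 5 libraries had no read, which allows up to 0.146 to 0.223 CPM given their depths. Summed over libraries, 59 reads at 7 days against 4 in controls gave a ratio of 15.1 (95% exact interval 5.59 to 57.2, counting error only), and 6 against 4 reads at 24 h gave 1.43 (0.340 to 6.91). An exact two-sided permutation test of CPM over the 5 and 5 libraries gave p = 0.0079 at 7 days, the smallest this design allows, and p = 0.60 at 24 h. The gene did not pass the low-count filter within this line. Without the filter its fitted 7 day value was 3.65 (edgeR adjusted p = 1.08e-04). The 7 day mean of 0.614 ± 0.193 CPM (SD, n = 5) stood beside 0.471 ± 0.191 CPM in untreated SH-SY5Y and 44.3 ± 11.8 CPM in untreated IMR-32.

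**Figure D1:**
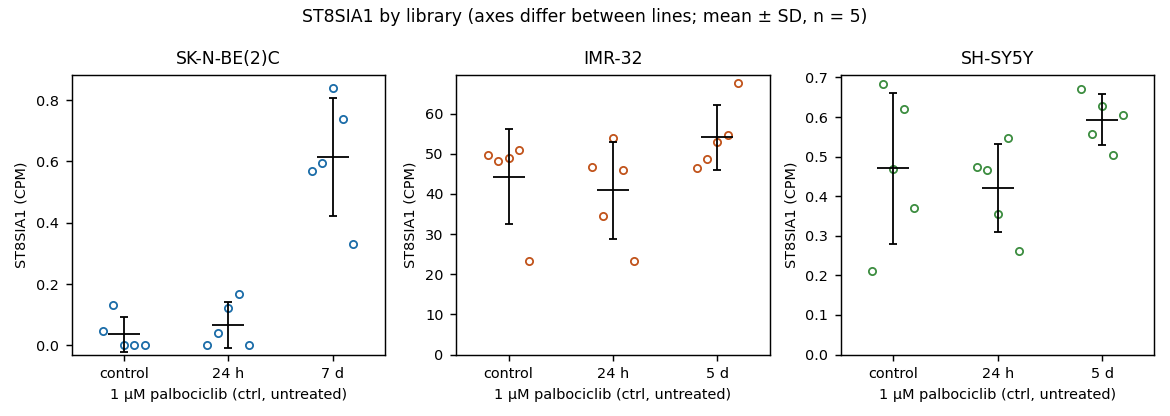
ST8SIA1 CPM in each library (open circles) of untreated, 24 h and longer PB groups, 1 panel per line with its own linear axis, with the mean and SD of 5 libraries in black. SK-N-BE(2)C libraries rise from 0 to 0.132 CPM in controls to 0.330 to 0.841 CPM at 7 days, whereas IMR-32 stays between 23.2 and 67.5 CPM at all times.

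In the other lines ST8SIA1 was not called. IMR-32 held 46.6, 34.6, 53.9, 45.9 and 23.2 CPM at 24 h and 46.5, 48.6, 53.0, 54.6 and 67.5 CPM at 5 days, which overlapped the controls, with log2 fold changes of -0.07 ± 0.22 and 0.28 ± 0.22, the second 0.03 without replicate 5. In SH-SY5Y the means were 0.471 ± 0.191 (SD, n = 5) CPM untreated, 0.421 ± 0.112 at 24 h and 0.593 ± 0.0647 at 5 days, and the log2 fold changes were -0.15 ± 0.32 and 0.28 ± 0.31. The fitted longer response of IMR-32 differed from that of SK-N-BE(2)C by -3.43, and that of SH-SY5Y by -3.37, both resting on the low SK-N-BE(2)C counts and given as a description for the same reason.

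B4GALNT1 (chromosome 12, 58017192 to 58027022, minus strand) was the only one of the 10 genes called lower within a line with every library kept separate, and at 24 h it fell in every line. Controls of SK-N-BE(2)C held 109, 118, 90.5, 92.9 and 96.1 CPM and the 24 h libraries 72.7, 79.6, 53.9, 50.9 and 56.4 CPM. In SH-SY5Y the controls held 103, 89.8, 85.0, 79.1 and 73.3 CPM and the 24 h libraries 51.9, 47.0, 44.02, 34.6 and 33.8 CPM. Every treated library lay below every control of its line. At 24 h the change on the log2 scale came to -0.72 ± 0.19 in SK-N-BE(2)C (adjusted p = 0.0053), -0.63 ± 0.10 in IMR-32 (adjusted p = 2.73e-04) and -1.04 ± 0.13 in SH-SY5Y (adjusted p = 4.06e-06), with no difference called between lines.

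The lines parted at the longer time. In IMR-32, B4GALNT1 went from 116, 123, 123, 124 and 113 CPM in controls to 89.2, 56.2, 85.5, 84.3 and 59.7 CPM at 24 h and to 142, 141, 141, 145 and 138 CPM at 5 days. All 5 day libraries were thus above all controls, by 0.23 ± 0.10 on the log2 scale (adjusted p = 0.073), which was not called, and the rise from 24 h to 5 days was 0.86 ± 0.10 (adjusted p = 2.17e-05). Without replicate 5 these were 0.22 and 0.79, and the 24 h fall was -0.57. All 8 proliferation genes were also called higher from 24 h to 5 days in IMR-32 (median log2 difference 1.70, or 1.60 without replicate 5), against 6 in SH-SY5Y (1.25) and 0 in SK-N-BE(2)C (0.31), and their part in the B4GALNT1 result was not tested. In SK-N-BE(2)C it stayed low at 7 days, with 83.2, 54.5, 35.2, 59.6 and 59.5 CPM (log2 fold change -0.84 ± 0.19, adjusted p = 9.48e-04). In SH-SY5Y the 5 day libraries held 51.7, 46.8, 39.7, 54.4 and 35.5 CPM (-0.99 ± 0.13, adjusted p = 3.62e-06). The longer response of IMR-32 exceeded that of SK-N-BE(2)C by 1.04 ± 0.22 (adjusted p = 2.38e-04), and that of SH-SY5Y differed from IMR-32, over the same 5 days, by -1.16 ± 0.22 (adjusted p = 7.54e-05). The exons of B4GALNT1 overlap annotated exons of the opposite strand, SLC26A10P among them, over 3005 bases, and how the counting treated strand is not stated, so that reads of the pair may not be told apart.

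Of the 3 enzymes upstream, ST3GAL5 alone was called. UGCG (chromosome 9, 114659094 to 114697649, plus strand) was not called in any comparison within a line: its means were 65.7 ± 4.71, 67.1 ± 3.54 and 58.4 ± 4.28 CPM (SD, n = 5) in untreated, 24 h and 7 day SK-N-BE(2)C, and lay between 25.4 and 30.2 CPM in all groups of the other lines. B4GALT5 (chromosome 20, 48249482 to 48330415, minus strand) was not called either. Its largest difference was in SK-N-BE(2)C, from 234, 260, 282, 293 and 283 CPM at 24 h to 327, 412, 387, 396 and 397 CPM at 7 days, with no overlap. That log2 difference of 0.49 ± 0.07 (adjusted p = 3.27e-05) was just under the size limit, and it was called when scaled by RLE size factors (0.51), by library totals (0.51) or in DESeq2 (0.51). In SH-SY5Y, B4GALT5 was higher at 5 days by 0.30 ± 0.06, under the limit.

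ST3GAL5 (chromosome 2, 86064243 to 86132322, minus strand), the GM3 synthase, rose at 24 h in SK-N-BE(2)C and was not above control at 7 days by the test. The controls held 16.4, 14.8, 13.02, 13.3 and 14.2 CPM, the 24 h libraries 19.9, 24.5, 18.6, 21.97 and 19.9 CPM, and the 7 day libraries 16.8, 13.4, 14.8, 16.8 and 16.2 CPM. The 24 h libraries lay above both other groups, with a log2 fold change against control of 0.52 ± 0.10 (adjusted p = 3.53e-04). That value is close to the size limit, and it fell to 0.44 to 0.49 when control replicate 3 or 4, 24 h replicate 2, or all of replicate 2 or 4 was left out. From 24 h to 7 days the difference was -0.44 ± 0.10 (adjusted p = 9.73e-04), under the size limit, and it was -0.50 (adjusted p = 0.014) and called lower with replicates 3 to 5 summed. In IMR-32, ST3GAL5 held 29.8, 32.6, 27.3, 29.9 and 13.04 CPM untreated and 40.3, 43.7, 39.4, 40.7 and 36.5 CPM at 5 days, with no overlap. The rise of 0.59 ± 0.22 was called (adjusted p = 0.034). Without replicate 5 it was 0.45 (adjusted p = 1.32e-04), under the size limit. The call was lost in 11 of the 20 fits that left out a library or replicate number, with adjusted p up to 0.094. The rise was 0.65 and was called (adjusted p = 9.47e-04) with the replicate number as a block. In SH-SY5Y the 5 day difference was 0.35 ± 0.13 and was not called.

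**Figure D2:**
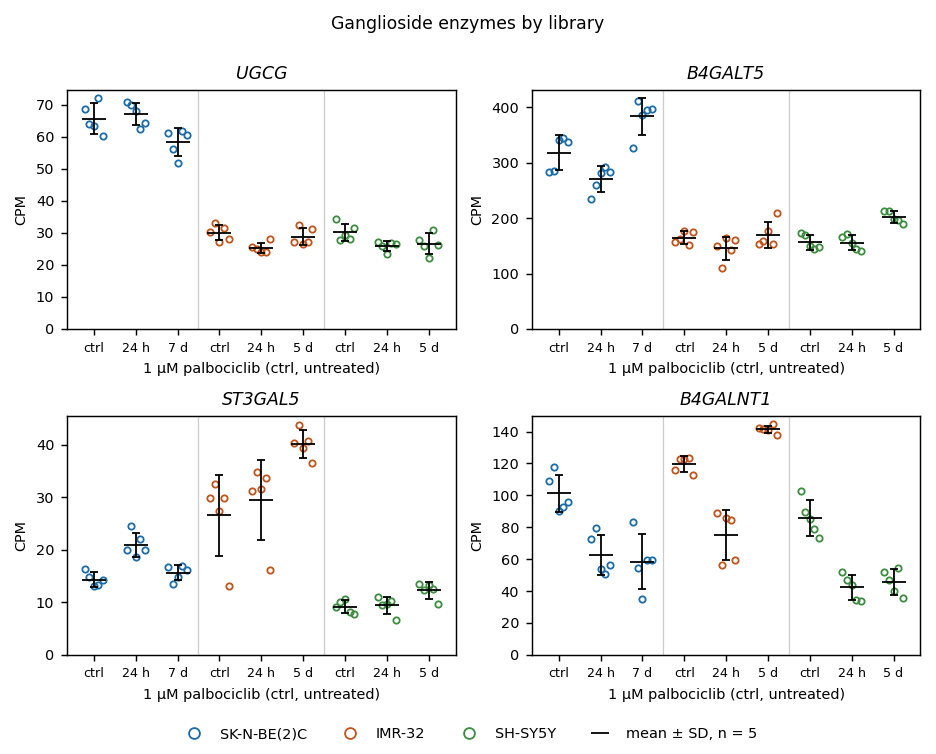
CPM of 4 ganglioside enzymes in each library (open circles, coloured by line) of untreated (ctrl), 24 h and longer PB groups, on linear axes from 0, with the mean and SD of 5 libraries in black. B4GALNT1 falls at 24 h in all lines and stands at 138 to 145 CPM at 5 days in IMR-32 against 35.5 to 54.4 CPM in SH-SY5Y.

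GPC2 (chromosome 7, 99767229 to 99775004, minus strand) rose in at least 1 comparison in each line. SK-N-BE(2)C held 13.7, 6.32, 10.7, 11.4 and 12.9 CPM untreated, 19.0, 13.01, 18.8, 21.1 and 18.04 CPM at 24 h, and 22.4, 18.5, 23.4, 23.7 and 22.4 CPM at 7 days. Against control these were higher by log2 values of 0.68 ± 0.17 (adjusted p = 0.0037) and 0.97 ± 0.17 (adjusted p = 8.17e-05), and only the 7 day libraries cleared every control. With replicates 3 to 5 summed to 1 library per group, the 24 h change was 0.66 with an adjusted p of 0.088. SH-SY5Y went from 56.4, 63.4, 70.1, 68.1 and 55.6 CPM to 105, 94.0, 105, 102 and 106 CPM at 24 h and 81.8, 78.5, 85.4, 120 and 87.7 CPM at 5 days. Both treated groups lay above all controls, by 0.70 ± 0.10 (adjusted p = 2.05e-05) and by 0.46 ± 0.10 (adjusted p = 6.38e-04), the second under the size limit. It passed the limit with library totals alone (0.53) and without control replicate 3, 5 day replicate 1 or 2, or all of replicate 3 (0.50 to 0.52).

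IMR-32 carried by far the most GPC2 mRNA: 286, 255, 270, 302 and 155 CPM untreated, 364, 345, 320, 358 and 275 CPM at 24 h, and 402, 386, 379, 377 and 305 CPM at 5 days. The 5 day group lay above all controls, with a log2 fold change of 0.53 ± 0.14 (adjusted p = 0.0057), which was 0.46 without replicate 5 (adjusted p = 4.65e-05) and so under the size limit. It was also under it, at 0.40 to 0.50, without control replicate 5 or 5 day replicate 1 alone. At 24 h it was 0.44 ± 0.14 (adjusted p = 0.027), not called, and 0.50 to 0.51 without control replicate 4 or 24 h replicate 5, which were called. Without all of replicate 5 it was 0.37 (adjusted p = 6.44e-04).

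L1CAM (chromosome X, 153126969 to 153151627, minus strand) was the most abundant of the 10 mRNAs per transcript length in untreated cells of 2 of the 3 lines and rose in all 3 at the longer time. SK-N-BE(2)C held 1238, 1209, 1263, 1259 and 1268 CPM untreated, 1638, 1615, 1763, 1765 and 1755 CPM at 24 h, and 2067, 2564, 2443, 2115 and 2143 CPM at 7 days, 3 ranges with no overlap. The 7 day log2 fold change was 0.82 ± 0.06 (adjusted p = 3.36e-09), and the 24 h one was 0.42 ± 0.06, under the size limit. SH-SY5Y went from 469, 413, 361, 403 and 335 CPM to 836, 711, 621, 667 and 636 CPM at 24 h and 683, 651, 585, 816 and 582 CPM at 5 days. Both treated groups cleared all controls, with 0.80 ± 0.10 (adjusted p = 4.99e-06) and 0.67 ± 0.10 (adjusted p = 1.72e-05).

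In IMR-32, L1CAM went from 550, 530, 455, 585 and 250 CPM to 828, 636, 703, 901 and 511 CPM at 24 h and 1182, 1214, 983, 1143 and 899.7 CPM at 5 days. The 5 day libraries lay above all controls, and the 24 h libraries overlapped them. The rise was 0.64 ± 0.19 at 24 h (adjusted p = 0.018) and 1.18 ± 0.19 at 5 days (adjusted p = 1.57e-04), and without replicate 5 it was 0.58 and 1.08, both called. The 24 h call was lost without control replicate 5, 24 h replicate 4, or all of replicate 1 or 3 (0.48 to 0.64, adjusted p up to 0.075). The step from 24 h to 5 days, 0.54 ± 0.19 (adjusted p = 0.039), was lost in 11 of 20 such fits, all of those that left out a replicate number among them, and it was 0.50 without replicate 5 (adjusted p = 0.0011), under the size limit before rounding. With the replicate number as a block the step was 0.57 and was called. An antisense gene, L1CAM-AS1, overlaps L1CAM exons over 358 bases, and a gene of the same strand does so over 439 bases.

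NCAM1 (chromosome 11, 112831997 to 113149158, plus strand) rose in SK-N-BE(2)C at 7 days, while in the other lines whether it was called depended on the fit. SK-N-BE(2)C held 378, 363, 394, 391 and 392 CPM untreated, 483, 469, 489, 500 and 484 CPM at 24 h, and 685, 785, 829, 791 and 815 CPM at 7 days, with no overlap among the 3 groups. The 7 day log2 fold change was 0.98 ± 0.05 (adjusted p = 7.13e-11), 0.68 ± 0.05 of it after 24 h (adjusted p = 1.67e-08). In SH-SY5Y the means were 285 ± 29.5, 317 ± 35.7 and 417 ± 45.1 CPM (SD, n = 5), and the 5 day change of 0.48 ± 0.09 (adjusted p = 1.03e-04) was under the size limit. It passed the limit with library totals alone (0.55) and in 4 fits that left out control replicate 1, 5 day replicate 3, or all of replicate 1 or 5 (0.51 to 0.56).

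In IMR-32 the NCAM1 result turned on replicate 5. The libraries held 75.0, 74.3, 49.3, 67.7 and 199 CPM untreated, 70.0, 42.1, 45.1, 70.1 and 237 CPM at 24 h, and 154, 130, 175, 153 and 226 CPM at 5 days. In each of the 5 replicates the 5 day library was above its control, and replicate 5 was high at all times. Over all libraries the 5 day change was 0.83 ± 0.47 (adjusted p = 0.15) and was not called. Without replicate 5 it was 1.19 (adjusted p = 3.64e-05), and with the replicate number as a block, which these libraries bear out, it was 1.03 (adjusted p = 0.0023). The step from 24 h to 5 days was likewise 0.81 (adjusted p = 0.20) unblocked, 1.12 (adjusted p = 0.0024) blocked and 1.37 (adjusted p = 2.12e-05) without replicate 5. NCAM1 exons overlap opposite-strand genes, NCAM1-AS1 among them, over 1002 bases.

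CD276 (chromosome 15, 73976307 to 74006855, plus strand) gave small changes. At 24 h the log2 fold changes were 0.27 ± 0.09, 0.26 ± 0.09 and 0.34 ± 0.06 in the 3 lines, all under the size limit, and without replicate 5 of IMR-32 the second was 0.23. The one call was at 5 days in IMR-32, from 114, 116, 122, 115 and 94.1 CPM to 183, 176, 146, 166 and 137 CPM, with no overlap (0.51 ± 0.09, adjusted p = 1.84e-04). It sits at the limit: it was 0.50 with RLE size factors or DESeq2 and 0.49 without a filter, and 0.46 to 0.50 without replicate 1, replicate 2, control replicate 5 or 5 day replicate 1 or 2, all under 0.5 before rounding. Without all of replicate 5 it was 0.51. In SH-SY5Y the 5 day change was 0.34 ± 0.06 and in SK-N-BE(2)C the 7 day change was 0.16 ± 0.09.

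CD47 (chromosome 3, 107761938 to 107810709, minus strand) rose only in IMR-32 among the calls made. Its libraries there held 119, 135, 154, 133 and 62.5 CPM untreated, 141, 133, 174, 145 and 67.6 CPM at 24 h, and 180, 197, 211, 227 and 170 CPM at 5 days. The 5 day group lay above all controls, by 0.70 ± 0.23 (adjusted p = 0.020), and by 0.58 (adjusted p = 6.63e-05) without replicate 5. The adjusted p was 0.055 to 0.073 without replicate 1, 2 or 4. The step from 24 h, 0.52 ± 0.23, had an adjusted p of 0.095, was called with the replicate block (0.59, adjusted p = 0.0024), and was 0.40 without replicate 5. In SH-SY5Y the means were 62.5 ± 3.35, 55.7 ± 2.77 and 62.2 ± 3.84 CPM and in SK-N-BE(2)C 160 ± 21.6, 166 ± 17.4 and 189 ± 8.71 CPM, none called. The 5 day response of SH-SY5Y differed from that of IMR-32 by -0.72 ± 0.22 (adjusted p = 0.011).

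**Figure D3:**
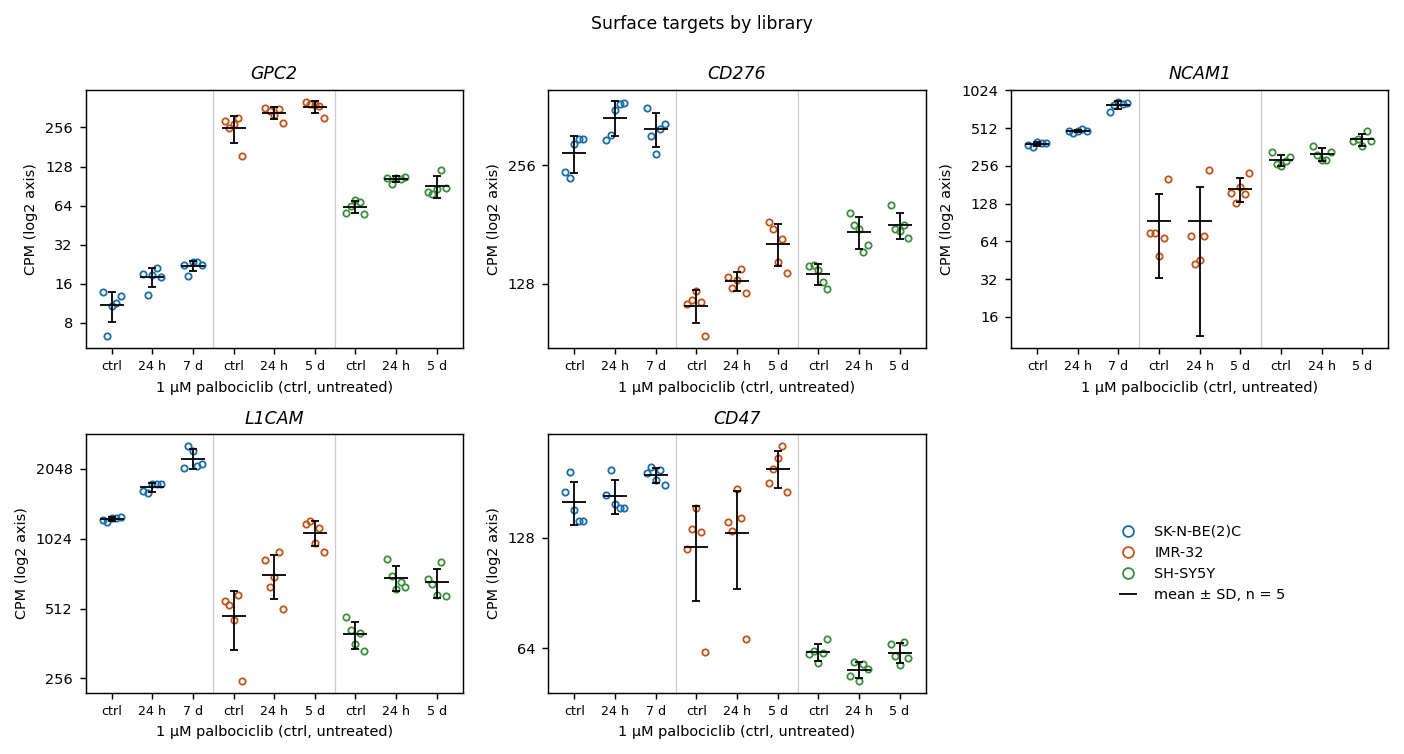
CPM of 5 surface target genes in each library (open circles, coloured by line) of untreated (ctrl), 24 h and longer PB groups, on log2 axes, with the mean and SD of 5 libraries in black. L1CAM and GPC2 libraries shift up with PB in each line, and 1 IMR-32 library of the control and 24 h groups, replicate 5, lies apart for NCAM1 (199 and 237 CPM) and CD47 (62.5 and 67.6 CPM).

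Counts over the 10 genes are set beside the share of all genes called. In SK-N-BE(2)C, 3 of 9 tested genes were called at 24 h (2 higher, 1 lower) against 21.5% of 14055 genes, 4 of 9 at 7 days (3 higher, 1 lower) against 46.8%, and 1 between the times against 31.9%. In IMR-32, 2 of 10 were called at 24 h against 18.3% of 14293 genes, 5 at 5 days, all higher, against 32.0%, and 2 between the times against 19.6%. In SH-SY5Y, 3 of 10 were called at 24 h against 21.5% of 14547 genes, 2 at 5 days against 35.9%, and 0 between the times against 16.7%, where 4 had an unadjusted p under 0.05 and DESeq2 also called 0. With the replicate number as a block, the counts in IMR-32 were 2, 6 and 4 in the same order, and those of the other lines did not change. The shares of all genes given here are of the fits with no block. Without replicate 5 of IMR-32, 4 of the 5 surface targets were still called at 5 days, with NCAM1 in place of GPC2, and no enzyme was. The 5 surface targets had a median log2 fold change of 0.82, 0.70 and 0.46 at the longer time in the 3 lines, with no surface target called lower, beside medians of 0.01, 0.00 and 0.01 over all genes. For the ganglioside enzymes the medians were -0.07 (4 tested), 0.23 and 0.28. Without replicate 5 the IMR-32 medians were 0.58 for the surface targets and 0.03 for the enzymes.

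**Figure D4:**
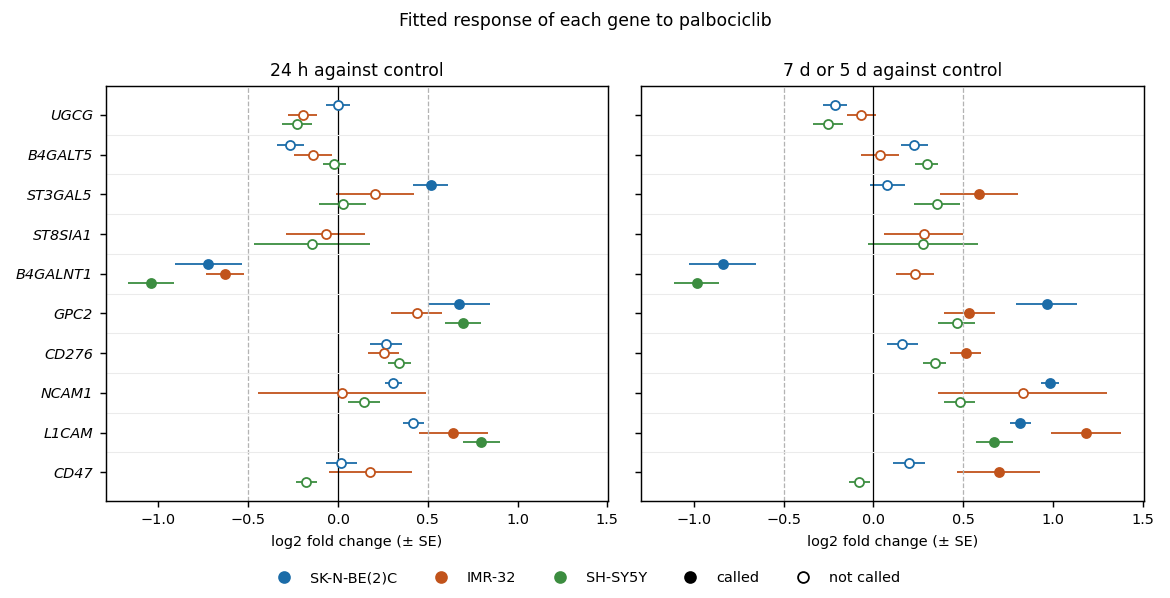
Fitted log2 fold change (horizontal axis, ± SE) of each gene against untreated control at 24 h (left) and at 7 d in SK-N-BE(2)C or 5 d in the other lines (right), coloured by line, with filled circles where called and dashed lines at the size limit of 0.5. B4GALNT1 lies left of 0 in all lines at 24 h and at 0.23 in IMR-32 at 5 d, and the surface targets lie mostly right of 0. ST8SIA1 has no point for SK-N-BE(2)C, where it was below the low-count filter.

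Differences between the responses of lines were tested directly. At 24 h no gene of the 10 was called in any pair (edgeR; 0 in DESeq2 too, and 2 unadjusted p under 0.05, B4GALT5 and L1CAM for SH-SY5Y against SK-N-BE(2)C), beside 4.49% of 16282 genes for IMR-32 against SK-N-BE(2)C, 2.04% for SH-SY5Y against SK-N-BE(2)C and 3.07% for SH-SY5Y against IMR-32. These comparisons share libraries. The interval of the L1CAM difference at 24 h between SH-SY5Y and SK-N-BE(2)C ran from 0.02 to 0.79. At the longer time, 2 of 10 were called for IMR-32 against SK-N-BE(2)C beside 23.9% of all genes (B4GALNT1 and ST8SIA1), 1 for SH-SY5Y against SK-N-BE(2)C beside 21.2% (ST8SIA1), and 2 for SH-SY5Y against IMR-32 beside 20.8% (B4GALNT1 and CD47). The ST8SIA1 calls are counted here but rest on 4 control reads of SK-N-BE(2)C, where the gene was below the filter, and without them the counts were 1, 0 and 2. With a replicate block within each line, CD47 (0.53, adjusted p = 0.0014) and ST3GAL5 (0.54, adjusted p = 0.0078) were also called for IMR-32 against SK-N-BE(2)C, and GPC2 (-0.50, adjusted p = 0.0036) for SH-SY5Y against SK-N-BE(2)C. Without replicate 5 of IMR-32, the GPC2 response of IMR-32 was lower than that of SK-N-BE(2)C (-0.53, adjusted p = 0.020) and the NCAM1 response of SH-SY5Y lower than that of IMR-32 (-0.66, adjusted p = 0.0012).

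Untreated levels were called different in at least 1 pair of lines for each of the 10 genes, which for B4GALNT1 held in 1 pair and was lost with library totals. IMR-32 against SK-N-BE(2)C gave 8 of 10 genes called beside 62.1% of all genes, SH-SY5Y against SK-N-BE(2)C 9 beside 57.5%, and SH-SY5Y against IMR-32 6 beside 54.2%, with ST8SIA1 counted in each. The ST8SIA1 calls against SK-N-BE(2)C rest on 4 control reads of that line and are a description only, though both counts include them. SK-N-BE(2)C had the highest UGCG, B4GALT5, CD276, NCAM1 and L1CAM: in IMR-32 these were lower by log2 differences of -1.15 ± 0.08, -0.96 ± 0.09, -1.31 ± 0.08, -2.06 ± 0.30 and -1.41 ± 0.14, and in SH-SY5Y by -1.33 ± 0.08, -1.22 ± 0.09, -1.22 ± 0.08, -0.63 ± 0.29 and -1.86 ± 0.14. The NCAM1 difference of SH-SY5Y was barely called (adjusted p = 0.045) and was lost with RLE size factors (-0.59, adjusted p = 0.060), with library totals (-0.43) and in 24 of 45 fits that left out a library. IMR-32 had the highest GPC2, by 4.51 ± 0.17 over SK-N-BE(2)C, with SH-SY5Y between them (2.31 ± 0.16 over SK-N-BE(2)C). IMR-32 also had the highest ST3GAL5, 0.87 ± 0.17 over SK-N-BE(2)C, and SH-SY5Y the lowest CD47, -1.56 ± 0.16 against SK-N-BE(2)C and -1.13 ± 0.16 against IMR-32. B4GALNT1 was called in 1 pair: it stood at 101 ± 11.7, 119 ± 4.93 and 86.0 ± 11.3 CPM in the 3 lines, and only SH-SY5Y against IMR-32 was called (-0.66 ± 0.15, adjusted p = 2.01e-04). With library totals that difference was -0.47, under the size limit. Without replicate 5 of IMR-32 all these calls held, NCAM1 in IMR-32 was further below SK-N-BE(2)C (-2.56), and L1CAM in SH-SY5Y was called below IMR-32 (-0.60 against -0.44 with it).

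Per kilobase of canonical transcript, L1CAM led in untreated SK-N-BE(2)C (243 ± 4.77 CPM per kb) and SH-SY5Y (77.1 ± 10.0), while in IMR-32 GPC2 (99.7 ± 22.8) and L1CAM (92.3 ± 26.1) led and did not separate. Under PB L1CAM had the highest mean in all lines at both times, although in IMR-32 at 24 h it stood at 139 ± 30.1 beside 131 ± 14.2 for GPC2. CD276 (83.4 CPM per kb) came after L1CAM in SK-N-BE(2)C, followed by B4GALT5 (67.4) and NCAM1 (65.9), whose order held in 3 of 5 libraries. In IMR-32 the order of B4GALT5 (34.9) and CD276 (34.1) held in 2 of 5 libraries, and those of CD47 (22.8), B4GALNT1 (22.3) and NCAM1 (16.0) in 4 of 5 each. In SH-SY5Y the order NCAM1 (49.0), CD276 (41.1), B4GALT5 (33.2), GPC2 (24.6), B4GALNT1 (16.0), CD47 (11.8), UGCG (7.62), ST3GAL5 (2.10) and ST8SIA1 (0.0485) had no overlap between neighbours on this length. The last 3 places were ST3GAL5 and ST8SIA1 after GPC2 (4.32) in SK-N-BE(2)C, at 3.28 and 0.0037, and UGCG (7.58), ST3GAL5 (6.08) and ST8SIA1 (4.56) in IMR-32. Taken over all annotated exons in place of the canonical transcript, B4GALT5 (67.4) moved ahead of CD276 (50.1) in SK-N-BE(2)C, while B4GALT5 (33.2) and CD276 (24.7) moved ahead of NCAM1 (22.4) for SH-SY5Y. On that length B4GALNT1 (15.1) also passed CD47 (14.7) in IMR-32, where ST8SIA1 (3.06) passed ST3GAL5 (1.63), and UGCG (14.4) passed B4GALNT1 (12.8) in SK-N-BE(2)C.

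**Figure D5:**
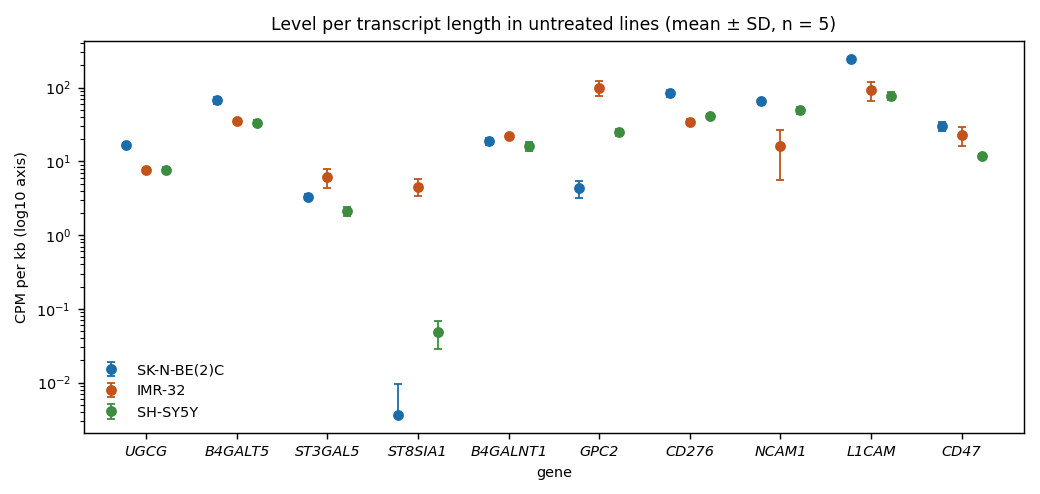
Level of each gene in the 3 untreated lines in CPM per kilobase of canonical transcript on a log10 axis, as mean and SD of 5 libraries, coloured by line. ST8SIA1 spans 0.0037 to 4.56 CPM per kb among lines and GPC2 4.32 to 99.7, while B4GALNT1 spans 16.0 to 22.3. Where the SD reached the mean, no lower bar is drawn.

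Genes around the pathway are given at the longer time, to be read against the shares of all genes above. Of those IMR-32 genes named, no rise or fall was lost without replicate 5, and ALK (0.87), CNTN1 (0.63), LRP1 (0.93), SLC6A2 (1.24) and ST8SIA2 (0.54) were also called. Exons of SIAE (over 3425 bases), THBS2 (2249) and B3GNT5 (1315) overlap genes of the opposite strand, and those of ICOSLG (3237) and SLC6A2 (2304) another gene of the same strand, so that their reads may not be told apart from those of their neighbours. B3GNT5, which starts the lacto-series from lactosylceramide, fell in all lines at the longer time, by log2 fold changes of -2.07 ± 0.18, -0.84 ± 0.16 and -1.66 ± 0.10 in the 3 lines, from 51.4 to 17.0 CPM in the last. Of the 7 genes of that group, 4, 4 and 5 were tested, 2, 1 and 1 rose and 1, 2 and 1 fell. GAL3ST1, a sulfatide synthase, rose in SK-N-BE(2)C (4.42 ± 0.68) and SH-SY5Y (2.54 ± 0.46) from low levels, 0.137 ± 0.023 CPM and 2.03 ± 0.75 CPM. UGT8, which makes galactosylceramide, fell in IMR-32 (-0.74) and CERK, the ceramide kinase, rose in IMR-32 (0.65) and SK-N-BE(2)C (0.73).

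Of 19 ceramide synthesis genes, 17 were tested in each line, and 5, 2 and 4 rose and 0, 0 and 2 fell at the longer time in the 3 lines, with 3 rising in IMR-32 without replicate 5. The ceramide synthases CERS1 (2.46 ± 0.16, 0.69 ± 0.19 and 0.75 ± 0.12) and CERS5 (0.91 ± 0.06, 0.67 ± 0.09 and 0.72 ± 0.06) rose in all lines, though CERS1 shares its transcript with GDF1 and their reads cannot be told apart. CERS4 rose in SK-N-BE(2)C (2.94 ± 0.43) and SH-SY5Y (1.78 ± 0.09), and SPTSSB, a small subunit of serine palmitoyltransferase, fell in SH-SY5Y (-0.75). Of 17 genes of ganglioside and sphingolipid breakdown, 15 were tested, with 4, 3 and 5 higher and 2, 1 and 0 lower. ARSA, the sulfatide sulfatase (1.43 ± 0.09, 1.07 ± 0.12 and 1.70 ± 0.10), and SMPD1, acid sphingomyelinase (1.03 ± 0.10, 1.02 ± 0.13 and 0.58 ± 0.10), rose in all lines. The acid ceramidase ASAH1 rose in SK-N-BE(2)C (0.86) and SH-SY5Y (1.07).

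Of 13 genes for sialic acid and sugar supply, 13, 12 and 13 were tested, with 3, 0 and 3 higher and 7, 3 (2 without replicate 5) and 2 lower. NANP, the phosphatase of sialic acid synthesis, fell in all lines (-0.77 ± 0.09, -0.86 ± 0.19 and -0.86 ± 0.11). The UDP-galactose carrier SLC35A2 (0.90 and 0.81), the sialate esterase SIAE (1.46 and 1.08) and the lysosomal sialic acid exporter SLC17A5 (0.84 and 0.94) rose in SK-N-BE(2)C and SH-SY5Y. Of 11 enzymes of later ganglioside steps, 9, 10 and 9 were tested, with 3, 2 (1 without replicate 5) and 0 higher and 1, 1 and 0 lower. ST6GALNAC5 rose in SK-N-BE(2)C (1.16 ± 0.10) and fell in IMR-32 (-0.65 ± 0.20), where it was abundant (200 ± 32 CPM untreated), ST6GALNAC3 fell in SK-N-BE(2)C (-0.87), ST8SIA3 rose there (0.56) and ST8SIA5 rose in IMR-32 (1.06) from 0.745 CPM. B4GALT6, the other lactosylceramide synthase, had 0.49, -0.25 and -0.48 and was not called. B3GALT4, which turns GD2 into GD1b, was at or near 0 in all groups, with means of 0 to 0.033 CPM, and was not tested.

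Among 10 listed genes of the NCAM and L1 families and of polysialylation, 9, 10 and 10 were tested at the longer time, of which 6, 3 (6 without replicate 5) and 6 rose and 0 fell in the 3 lines, with medians of 0.93, 0.59 (0.56 without replicate 5) and 0.83. NCAM2 (0.93 ± 0.18, 1.05 ± 0.22 and 1.92 ± 0.15) and NFASC (1.04 ± 0.13, 1.02 ± 0.24 and 1.12 ± 0.17) rose in all lines, and MCAM (1.38 and 1.67) and CNTN1 (1.14 and 1.13) in SK-N-BE(2)C and SH-SY5Y. Of the polysialyltransferases that act on NCAM1, ST8SIA2 was not called (0.36, 0.49 and -0.35), and ST8SIA4 was called only in IMR-32 (0.69), at 16.4 ± 5.1 CPM untreated, against 0.809 ± 0.39 CPM in SH-SY5Y.

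Of 13 genes of glypicans and their processing, 10, 11 and 13 were tested at the longer time, with 1, 2 and 1 higher and 3, 4 and 1 lower. GPC3, itself an antibody target, fell in IMR-32 (-2.67 ± 0.15, from 45.9 to 7.28 CPM) and rose in SH-SY5Y (1.09 ± 0.41). PIGA, needed for the GPI anchor, fell in SK-N-BE(2)C (-1.24) and SH-SY5Y (-0.51), NOTUM, which cleaves glypican anchors, rose in SK-N-BE(2)C (0.52) and fell in IMR-32 (-1.92), and XYLT1 fell in IMR-32 (-1.90). Of 13 genes of the B7 family list, 5, 5 and 6 were tested, with 0, 1 and 1 higher and 2, 1 and 1 lower. ICOSLG fell in SK-N-BE(2)C (-2.47 ± 0.22, from 3.81 CPM), BTN3A2 fell in IMR-32 (-1.52) and SK-N-BE(2)C (-1.27), VTCN1 rose in IMR-32 (2.31) and NCR3LG1 fell in SH-SY5Y (-1.47).

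On the CD47 axis, 8, 4 and 7 of 13 listed genes were tested, with 2, 0 (1 without replicate 5) and 3 higher and 1, 0 and 3 lower. SIRPA, the receptor of CD47, fell in SK-N-BE(2)C (-3.66 ± 0.30, from 4.12 to 0.327 CPM) and SH-SY5Y (-1.90 ± 0.18). LRP1, the receptor for surface calreticulin, rose in both (2.91 ± 0.21 and 0.76 ± 0.13), and QPCT, a glutaminyl cyclase, rose in SK-N-BE(2)C (1.28). THBS2 fell in SH-SY5Y (-1.78). Among 32 other surface targets, 21, 20 and 23 were tested, with 6, 2 and 3 higher and 5, 6 and 8 lower. Without replicate 5 of IMR-32, 5 were higher and 8 lower there. LGR5 (-1.30 ± 0.12, -1.81 ± 0.19 and -0.62 ± 0.12) and ROR1 (-0.77 ± 0.15, -1.55 ± 0.19 and -0.62 ± 0.06) fell in all lines. ERBB2 rose in IMR-32 (0.95) and SK-N-BE(2)C (2.56), and PROM1 fell in IMR-32 (-5.20) and SH-SY5Y (-1.41), from 2.29 and 1.64 CPM. SLC6A2, the noradrenaline transporter that takes up radiolabelled MIBG, rose in SK-N-BE(2)C (0.77 ± 0.11) and at 5 days had 0.45 ± 0.08 in SH-SY5Y and 1.24 ± 0.83 in IMR-32, neither called. ALK fell in SK-N-BE(2)C (-1.89 ± 0.45) and was not called in IMR-32 (0.64 ± 0.29) or SH-SY5Y (0.19 ± 0.13).

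The genes whose log2 CPM followed each member most closely over the 45 libraries, with line means removed, are given as a description, since the libraries share treatment. L1CAM was followed by NACAD (Pearson r = 0.97), APC2 (0.96) and DISP2 (0.95), CD47 by MTMR7 (0.91), MGAT5 (0.89) and ENO2 (0.86), GPC2 by BBC3 (0.90), TLCD3B (0.89) and MFSD10 (0.89), CD276 by MMP15 (0.89), PHLDB1 (0.86) and HELZ2 (0.85), and NCAM1 by SYN2 (0.87), BCR (0.84) and APBA1 (0.81). Among the enzymes, B4GALNT1 was followed by SVIP (0.88), SERTAD4 (0.88) and ABHD3 (0.87), B4GALT5 by RNF145 (0.87), ADAT1 (0.84) and TMEM30A (0.78), ST3GAL5 by CTNNA2 (0.86), OLFM3 (0.85) and CD99L2 (0.84), ST8SIA1 by RAB6B (0.85), FSD1L (0.85) and ATP9A (0.84), and UGCG, the least well matched, by STK17B (0.73), C2orf69 (0.72) and SELENOI (0.70).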

How the data were processed

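Poly(A) RNA from 45 cultures (5 per group) was sequenced as directional paired-end libraries. The paper defines replicates as different passages plated in independent experiments, and the main fits take the 5 as independent. In SK-N-BE(2)C control and 24 h groups, however, replicates 3 to 5 lay closer to each other than to the rest for L1CAM and B4GALNT1. Whether they are separate experiments was not tested. With these 3 summed to 1 library per group, the count of genes called at 24 h was 2 in place of 3. The authors trimmed reads with Trim Galore 0.6.4, aligned them to hg19 with STAR (2.6.1d in the submitters' processing notes, another release in the methods) and deposited raw read counts per gene. The deposited CPM equal counts over library totals and were used for levels only. The authors' tables of fold changes and p-values were not used. Counts were tested with edgeR 4.0.16 (R 4.3.3; TMM scaling, filterByExpr with a minimum count of 10, robust quasi-likelihood, Benjamini-Hochberg adjustment over all genes tested), in each line alone (15 libraries) and over 45 libraries for lines and differences between responses. Scripts were tested on simulated data. Alternatives were RLE scaling, library totals, no filter, DESeq2 1.42.0, a replicate block, summed replicates 3 to 5 of SK-N-BE(2)C and fits without each library. Same-numbered libraries deviated together in all 5 pairs (r over 0.1) in every comparison but the 2 with SK-N-BE(2)C at 7 days, where the lowest r was 0.0966 and 0.0482. The main fits did not use this pairing. Members and lists were chosen with earlier results of these data known. All 10 genes are named, and up to 4 per other list: those called the same way in all 3 lines at the longer time, then those with the largest called change in any line at 1 CPM or more, with ST8SIA2, ST8SIA4, B4GALT6, B3GALT4, SLC6A2 and ALK whatever their values. Single genes of 2 lists are not reported here.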

Additional observations from a re-analysis of the deposited data

Results flagged for a closer look

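Of 90 groups of 5 libraries (10 genes in 9 groups), 9 held a library whose gap to its nearest neighbour took over Dixon's 95% limit of the group's range, where chance gives about 1 in 20. Of these, 5 were replicate 5 of IMR-32 in the control or 24 h group: ST3GAL5 at 13.04 and 16.2 CPM, ST8SIA1 at 23.3 CPM in the control, and NCAM1 at 199.5 and 236.8 CPM. The same replicate at 5 days was low for GPC2 (305.2 CPM). The others were ST3GAL5 in SH-SY5Y 5 day replicate 5 (9.60 CPM), GPC2 in SK-N-BE(2)C 7 day replicate 2 (18.5 CPM) and GPC2 in SH-SY5Y 5 day replicate 4 (120.3 CPM).

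A further 5 tested differences between the responses of lines were called at the longer time. For B4GALNT1 they were 1.04 for IMR-32 against SK-N-BE(2)C and -1.16 for SH-SY5Y against IMR-32, on the log2 scale. For ST8SIA1 they were -3.43 for IMR-32 and -3.37 for SH-SY5Y, each against SK-N-BE(2)C, where the gene held 4 control reads and was below the low-count filter, so that these are a description only. For CD47 the difference of SH-SY5Y against IMR-32 was -0.72. Line and duration cannot be told apart in those against SK-N-BE(2)C.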

How the results depend on the processing

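No called value of the 10 genes changed sign under any alternative. The count of genes called from 24 h to 7 days in SK-N-BE(2)C, 1, was 2 with RLE scaling, library totals or DESeq2, which added B4GALT5. It was also 2 with no filter, where B4GALT5 was at 0.46 and ST8SIA1 was the gene added. With replicates 3 to 5 summed it was 4, with ST8SIA1 again among them. ST8SIA1 enters such fits only with no filter or through its 7 day libraries, so its calls there are a description only. Without the filter, 2 in place of 5 were called in IMR-32 at 5 days and 1 in place of 2 from 24 h to 5 days, with ST3GAL5 at an adjusted p of 0.074, CD47 at 0.054 and L1CAM at 0.074. Library totals gave 4 in place of 2 at 5 days in SH-SY5Y. With the replicate block, 4 in place of 2 were called in IMR-32 from 24 h to 5 days, 4 in place of 2 for the longer response of IMR-32 against SK-N-BE(2)C and 2 in place of 1 for that of SH-SY5Y, and it changed no other count of members by over 1.5 times. In SK-N-BE(2)C at 7 days, where the lowest r of same-numbered libraries was under 0.1, the block left 4 and 1 called. Leaving out libraries gave 1 to 3 called in SK-N-BE(2)C from 24 h to 7 days, with ST8SIA1 called in all 12 fits where it passed the filter. In IMR-32 it gave 1 to 3 at 24 h, 2 to 6 at 5 days and 1 to 3 between them. It gave 0 to 1 for the 24 h response of IMR-32 against SK-N-BE(2)C (NCAM1, without 24 h replicate 5 of IMR-32) and 1 to 2 for the longer response of SH-SY5Y against SK-N-BE(2)C (GPC2, without SK-N-BE(2)C control replicate 1 or SH-SY5Y 5 day replicate 4). The cause was not tested. The alternatives that left out IMR-32 replicate 5 in comparisons of responses were chosen after seeing the data. Depth limits ST8SIA1 in SK-N-BE(2)C and SH-SY5Y, which rest on 0 to 20 reads per library.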
